A study of Glycine max with 108 samples.

Results

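Leaves of soybean plants (Glycine max, cultivar Magellan) that met water deficit and low phosphate together, called the pair here, were set against leaves that met each of these stresses alone, with untreated leaves as the baseline. The groups were chosen by their treatment labels. They hold 11 RNA-seq libraries of the 108 samples in the series, namely 3 of the pair, 3 of water deficit, 3 of low phosphate and 2 of the control. A column named as the third control replicate held the mean of the other 2 control columns at 100% of the features above 0, and it was left out. All plants were 31 days old, carried a Bradyrhizobium japonicum seed inoculum and grew in pots of Promix and perlite with nutrient solution. Water-deficit plants, also in the pair, received 30% of the transpirable water, and control and low-phosphate plants 100%. Phosphate in the nutrient solution was lowered by 90% from the start. The labels give that level for low phosphate alone, and the same level is assumed for the pair. Each library came from leaves of 5 to 7 plants pooled together, so p-values measure the spread between such pools. In pooled leaf tissue, fewer cells of a type and less RNA per cell cannot be told apart.

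Plants short of water close their stomata and raise the hormone abscisic acid, which induces many protective genes. Plants short of phosphate induce phosphate transporters and acid phosphatases and replace membrane phospholipids with other lipids, under transcription factors of the PHR family. Because dry soil also slows the movement of phosphate to the root, the question a comparison of the pair with its parts answers is whether leaves under both stresses look like the sum of the single responses.

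The authors' table gives FPKM, that is, fragments mapped to a gene relative to its transcript length and to the size of the library. Genes are named by ID alone, because none of the 57147 IDs matched the gene table at hand, and leaf markers could not be looked up by name for the same reason. The FPKM values of the 11 libraries summed to between 639430 and 711499, with 37691 to 39392 features above 0. The number of reads is unknown. The depth relative to the median leaf library, read from the steps between low values, was 1.16 and 1.23 in the control, 1.01 to 1.23 in low phosphate, 0.895 to 1 in water deficit and 0.925 to 1.02 in the pair. A feature was tested when its mean over the 53 leaf libraries reached 1 FPKM, which left 28678 features. Differences are of log2(FPKM + 1), so that those of weakly expressed genes are shrunk by the added 1, and a gene was called at a Benjamini-Hochberg adjusted p under 0.05 in limma.

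The libraries of the pair stood together and apart from the other 3 groups. Across genes, they correlated with each other at Pearson r between 0.971 and 0.973. Within each of the other 3 groups, r was 0.955 to 0.97. Water-deficit libraries correlated at 0.955 to 0.963 with each other, within the range of their values with low phosphate, 0.943 to 0.964. Low-phosphate libraries correlated at 0.967 to 0.97 with each other, above all of their values with water deficit. The control, water-deficit and low-phosphate libraries correlated between groups at 0.936 to 0.964, while the pair correlated with them at 0.909 to 0.932. The pair thus lay farther from both of its parts and from the control than these 3 groups lay from one another. The points behind each r are genes of the same libraries, so the values are descriptions.

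**Figure D1:**
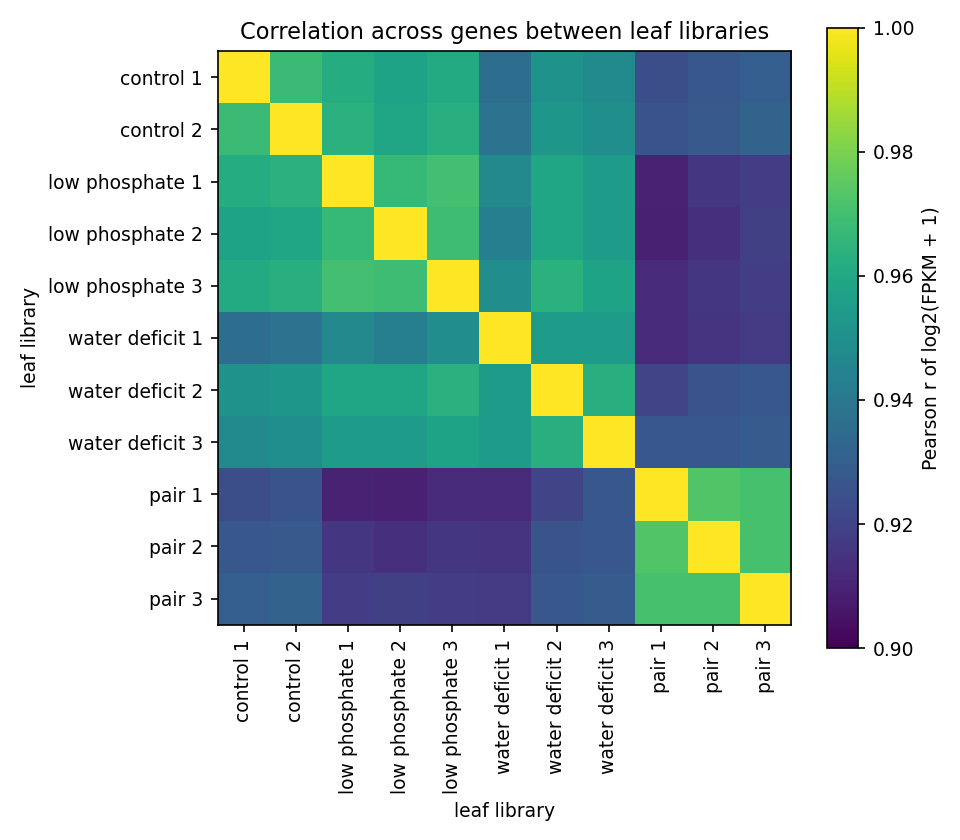
Pearson r of log2(FPKM + 1) across 28678 genes between the 11 leaf libraries, 1 row and 1 column per library. The block of the 3 pair libraries (0.971 to 0.973) stands out from its cells with the other 8 libraries (0.909 to 0.932).

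The pair differed from each of its parts at a large share of genes. Against water deficit, limma called 12109 of 28678 genes (42.2%), 4784 higher and 7325 lower in the pair. Against low phosphate it called 14741 (51.4%), 4939 higher and 9802 lower. By contrast, low phosphate alone differed from the control at 1095 genes (3.82%) and water deficit alone at 6905 (24.1%). The pair differed from the control at 13286 genes (46.3%). The root mean square log2 difference over all tested genes was 0.54 for the pair against water deficit and 0.59 against low phosphate, above the 0.33 of low phosphate and the 0.43 of water deficit against control. Without control replicate 1 the count for low phosphate was 638 and that for water deficit 3365, and without water deficit replicate 1 the latter was 4557.

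The balance of higher and lower genes depended on how the libraries were scaled. The median ratio of a library to the gene-wise geometric mean was 0.886 to 0.914 in the pair, 0.94 to 1 in water deficit, 1.03 to 1.07 in low phosphate and 1.05 to 1.1 in the control. Dividing each library by that ratio moved the median difference over all genes by 0.093 against water deficit, by 0.175 against low phosphate and by 0.206 against the control. After it, 6512 of 11392 called genes were higher in the pair than in water deficit (57.2%, against 39.5% as deposited), and 8052 of 13235 were higher than in low phosphate (60.8%, against 33.5%). For the pair against control the share went from 28.1% to 61.8%. Directions are therefore read below from genes called the same way under both scalings. Directional counts from 1 scaling, where given, hold for that scaling alone. Against water deficit these were 4784 higher genes (16.7% of those tested) and 4880 lower genes (17.0%). Against low phosphate they were 4939 higher (17.2%) and 5183 lower (18.1%).

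**Figure D2:**
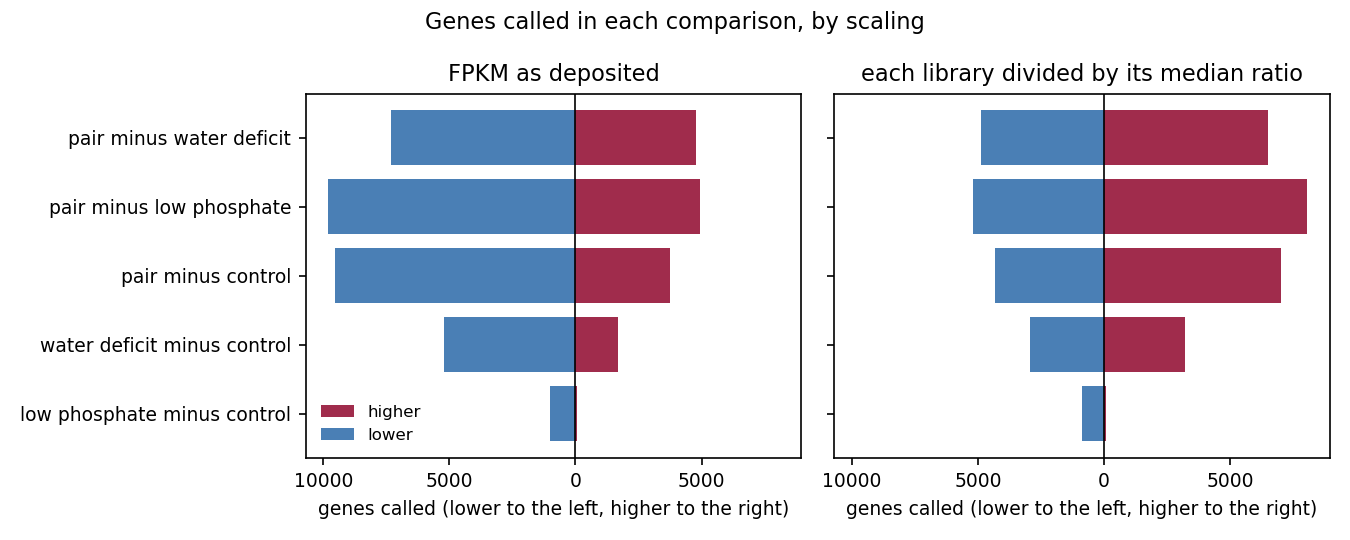
Genes called in each comparison at an adjusted p under 0.05, higher to the right and lower to the left, with FPKM as deposited (left) and after division by each library's median ratio (right). In the pair against low phosphate, 4939 genes are higher as deposited and 8052 after scaling.

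Large changes, counted as folds of FPKM + 1, were mostly rises, under both scalings. The added 1 shrinks changes that start or end at low levels, and its part in this balance was not tested. With 0.1 added instead, the log2 difference from water deficit went from -2.71 to -3.04 in GLYMA_06G043000 and from 5.33 to 5.87 in GLYMA_02G215700. Against water deficit, 1021 genes were at least 2-fold higher in the pair and 229 at least 2-fold lower, and at 4-fold the counts were 233 and 13. Against low phosphate, 1028 were at least 2-fold higher and 309 lower, and at 4-fold 257 and 27. At 8-fold, 49 genes were higher and 1 lower than in water deficit, and 74 higher and 8 lower than in low phosphate. The single 8-fold fall in FPKM + 1 against water deficit was GLYMA_19G046800, a feature listed at exactly 0 in the pair and the control.

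A group of 3620 genes was higher in the pair than in both parts as deposited (12.6% of those tested), and after scaling the group held 5416 (18.9%). All 3620 were in both sets. In the other direction, 5607 genes were lower than both parts as deposited (19.6%) and 2970 after scaling (10.4%), and all 2970 were in both sets. These counts use the same 3 pair libraries on both sides. Only 36 genes lay above one part and below the other under both scalings. Under both scalings, a further 1048 genes were called against the water-deficit libraries and not against the low-phosphate ones. Another 2370 were called the other way round, and 8348 against neither. The remaining genes changed class with the scaling. As deposited, these classes held 2797 (9.75%), 5429 (18.9%) and 11140 genes (38.8%), and after scaling 2922 (10.2%), 4765 (16.6%) and 12521 (43.7%).

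The 3620 genes higher than both parts had a median level, after scaling, of 10.1, 10.3 and 10.1 FPKM in the pair libraries. In low phosphate the medians were 4.27, 4.36 and 4.24 FPKM, in water deficit 4.63, 4.58 and 4.79 FPKM, and in the control 5.4 and 5.42 FPKM. Each part alone thus lay somewhat below the control for these genes, and the pair well above it. The 2970 genes lower than both parts had medians of 5.36, 5.33 and 5.38 FPKM in the pair and between 7.82 and 8.63 FPKM in the other 8 libraries. These levels describe genes chosen for their difference.

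The 3 pair libraries lay all on one side of the other 8 libraries, under both scalings, at 6546 genes (22.8%). They lay above all 8 at 3378 genes and below all 8 at 3168.

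The members of these groups were found at all levels of expression, but not evenly. Among the 12477 genes with a leaf mean of 1 to 5 FPKM, 7.6% were higher than both parts under both scalings. The share was 12.6% at 5 to 20 FPKM, 23% at 20 to 100 FPKM and 35.3% among the 873 genes at 100 FPKM or more. The genes lower than both parts went the other way, from 10.4% in the lowest class to 5.61% in the highest. Genes called, in either direction, off the sum of the single effects, as tested below, made up 17.7%, 26%, 38.1% and 43.3% of these classes. The level is a mean over all leaf libraries, the pair among them, so level and set are not independent. Because FPKM is a share of the library, a rise of abundant genes and a lower level of the rest are tied in the deposited values, and the part of this in the scaling difference was not tested.

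The largest rises and falls against each part are shown with every library, among genes above 0 in all 11 libraries, with a mean over them of at least 5 FPKM and less than 3-fold spread within each group. GLYMA_02G215700 had 109.6, 118 and 118 FPKM in the pair. It had 1.44, 2.48 and 1.83 FPKM in water deficit and 1.56, 1.74 and 1.05 FPKM in low phosphate, and 12.5 and 16.6 FPKM in the control. Every pair library was thus above every control library, and every library of either single stress below it. The log2 difference was 5.33 ± 0.13 (SE, n = 3 and 3) against water deficit, with a limma adjusted p of 4.46e-31, and 5.58 ± 0.13 against low phosphate, with a limma adjusted p of 7.61e-32. The spread behind these values, and behind those of the genes below, came from all 53 leaf libraries. With only the 4 groups fitted, the limma adjusted p was 5.31e-10 against water deficit and 2.7e-10 against low phosphate.

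GLYMA_07G143500, the other leading rise against water deficit, had 70.7, 72.7 and 81.4 FPKM in the pair. It had 1.57, 1.57 and 1.1 FPKM in water deficit, 3.35, 2.85 and 2.86 FPKM in low phosphate, and 22.9 and 18.7 FPKM in the control. The 4 groups did not overlap, and both single stresses lay below the control. Its log2 difference was 4.98 ± 0.14 against water deficit (limma adjusted p = 4.79e-29) and 4.24 ± 0.14 against low phosphate.

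GLYMA_13G029200, the second-largest rise against low phosphate, had 70.4, 74.8 and 76.9 FPKM in the pair. It had 3.39, 2.29 and 2.09 FPKM in low phosphate, 2.68, 2.95 and 2.56 FPKM in water deficit, and 16 and 17.4 FPKM in the control. Here the single stresses overlapped each other, below the control, and the pair lay above it. The log2 difference was 4.40 ± 0.08 against low phosphate (limma adjusted p = 1.97e-36) and 4.33 ± 0.08 against water deficit.

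Among the falls, GLYMA_06G043000 had 2.65, 3.35 and 2.73 FPKM in the pair. Its values were 27.9, 22.1 and 24.1 FPKM in water deficit, 19.1, 23.5 and 21.9 FPKM in low phosphate and 20.3 and 21.7 FPKM in the control. The 8 other libraries thus overlapped across their 3 groups, all above the pair. It fell by 2.71 ± 0.16 on the log2 scale against water deficit (limma adjusted p = 2.97e-18) and was not called in either single stress against the control, with limma adjusted p of 0.385 and 0.988.

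GLYMA_14G038500 had 43.1, 48.4 and 44.1 FPKM in the pair, against 277, 280.4 and 229 FPKM in water deficit. Low phosphate had 181, 193 and 156 FPKM and the control 137 and 144 FPKM. The groups did not overlap, with water deficit highest and the pair lowest. It fell by 2.51 ± 0.12 on the log2 scale against water deficit (limma adjusted p = 6.27e-21), while water deficit alone stood 0.89 ± 0.13 above the control (limma adjusted p = 2.45e-06).

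The leading falls against low phosphate were of another kind, since they were already low under water deficit alone. GLYMA_06G291700 had 2.04, 2.08 and 1.94 FPKM in the pair and 6.3, 5.61 and 5.8 FPKM in water deficit, with 39, 36 and 36.1 FPKM in low phosphate and 45.8 and 45.8 FPKM in the control. GLYMA_03G221400 had 0.179, 0.314 and 0.112 FPKM in the pair and 0.345, 0.535 and 0.331 FPKM in water deficit, with 11.4, 10.7 and 11.5 FPKM in low phosphate and 9.9 and 9.94 FPKM in the control. The log2 difference from low phosphate was -3.65 ± 0.09 and -3.35 ± 0.08. For GLYMA_03G221400 the difference from water deficit, -0.22 ± 0.08, was lost when only the 4 groups were fitted (limma adjusted p = 0.124). It was also lost without water deficit replicate 2 (limma adjusted p = 0.157), without pair replicate 1 (0.0669) and without pair replicate 3 (0.134).

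**Figure D3:**
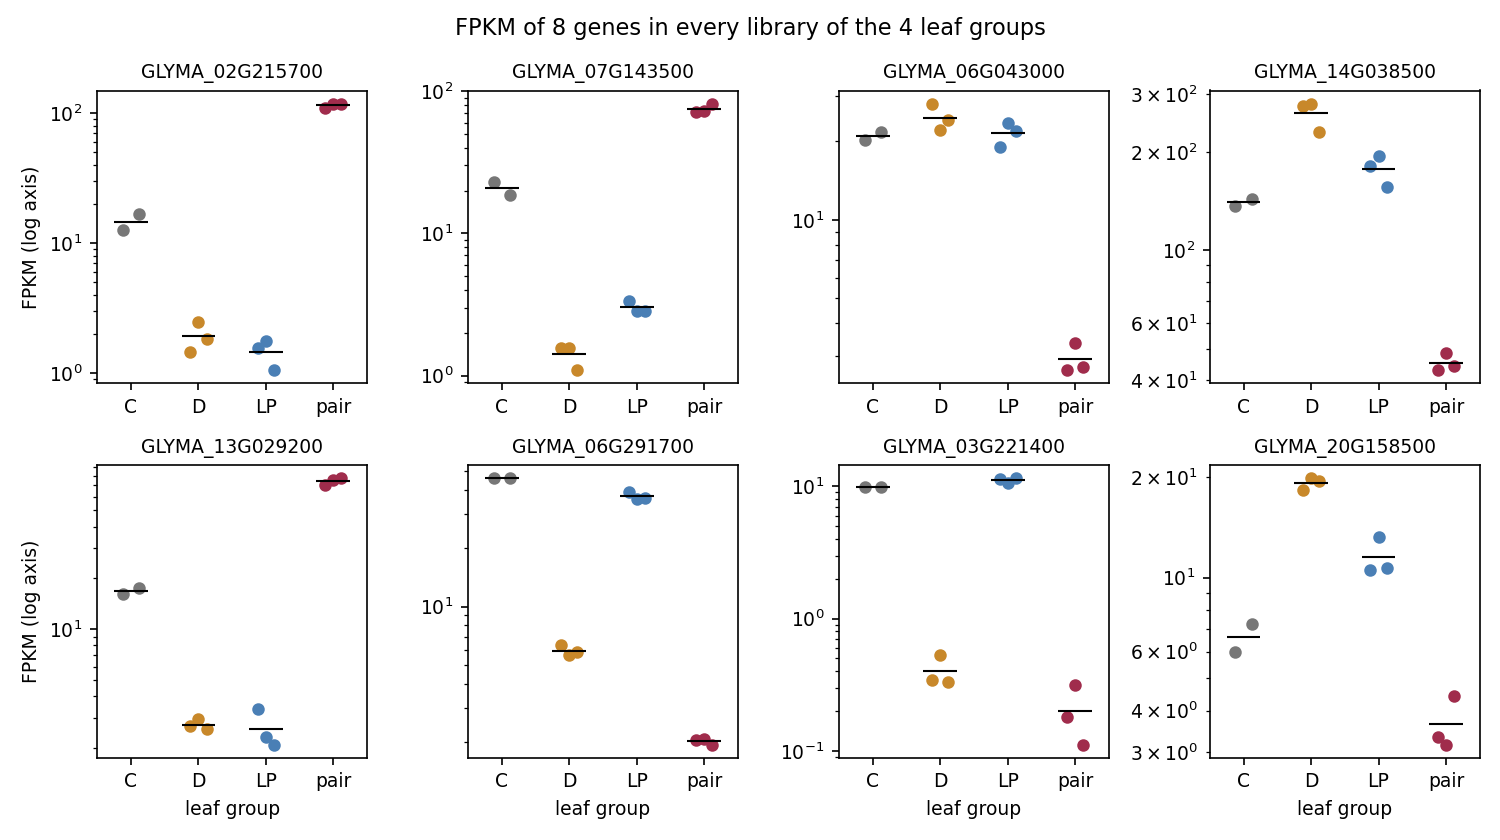
FPKM on a log axis of the 8 genes named by rule, 1 point per library and a line at the group mean, in the control (C, n = 2), water deficit (D), low phosphate (LP) and the pair (n = 3 each). In GLYMA_02G215700 the pair is at 109.6 to 118 FPKM, above the control, and both single stresses are below the control.

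With no other stress added, the effect of low phosphate depended on the water supply. Its median effect under other added stresses is given below. Low phosphate without water deficit was read from the low-phosphate and control libraries, and low phosphate under water deficit from the pair and the water-deficit libraries, so these 2 comparisons share no library. Of the 862 genes lower in low phosphate than in control under both scalings, 795 (92.2%) were higher in the pair than in water deficit, where 16.7% of all tested genes were. A further 8 were lower (0.928%, where 17.0% of all genes were) and 59 were not called. Their median log2 difference was -0.68 without water deficit and 1.20 with it as deposited, and -0.64 and 1.31 after scaling, where the median of all genes with water deficit was -0.08 as deposited and 0.01 after scaling. As deposited, 1021 genes were lower in low phosphate alone, and 899 of them were higher in the pair than in water deficit. That count of 899 was 567 without control replicate 1, when 603 genes were lower in low phosphate alone. It was 503 when only the 4 groups were fitted, when 526 were lower in low phosphate alone.

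The library levels of these 862 genes show where the shift lies. After scaling their median was 4.77 and 4.65 FPKM in the control, 2.23, 2.25 and 2.13 FPKM in low phosphate, 2.73, 2.6 and 2.52 FPKM in water deficit, and 9.15, 9.44 and 9.34 FPKM in the pair. Both single stresses were therefore near each other and below the control, and the pair was above it. The water-deficit median against the control was -0.65 as deposited and -0.55 after scaling, in libraries that share the controls used to choose the genes. The pair against the control had a median of 0.58 as deposited and 0.79 after scaling, with the same shared controls. Of the 69 genes higher in low phosphate than in control, 15 were higher (21.7%) and 21 lower (30.4%) in the pair than in water deficit. Medians of the 862 genes relative to the 18-group leaf mean, after scaling, were read as well. Adding low phosphate moved them from 0.03 to 0.13 under salinity and from 0.32 to 0.29 under salinity with water deficit. Under acidity the move was from -0.72 to -0.17, and with water deficit from 0.3 to -0.08. Under salinity with acidity it was from 1.38 to 0.17, and with water deficit from 0.56 to 0.76. A fall without water deficit and a rise with it thus recurred only there.

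**Figure D4:**
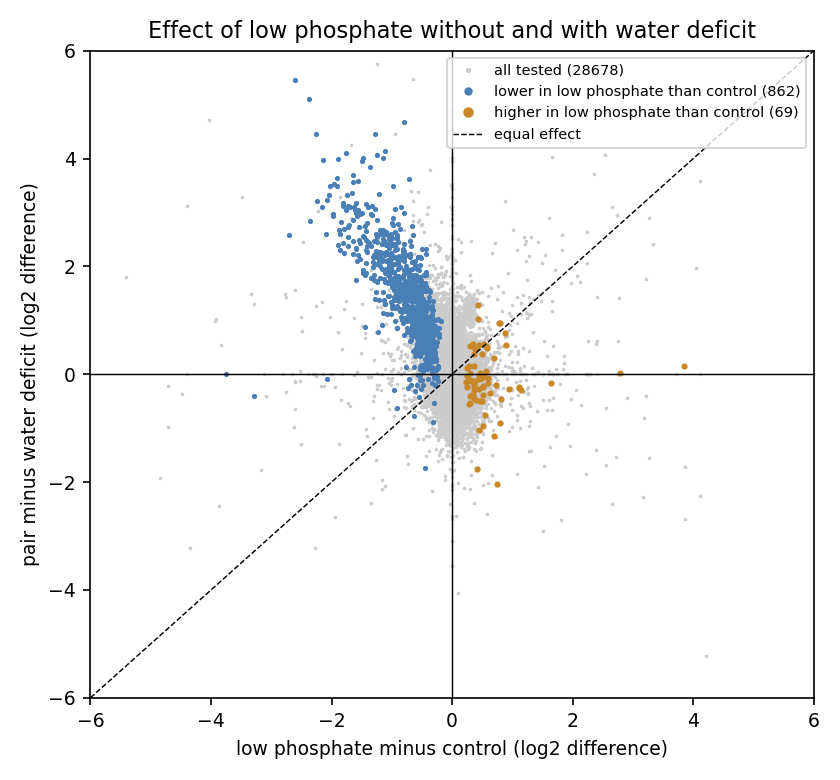
Log2 difference of low phosphate from control (x) and of the pair from water deficit (y), after scaling, 1 point per gene, with genes lower (862) or higher (69) in low phosphate than in control in colour and equal effects on the dashed line. Nearly all of the 862 lie above 0 on the y axis (795 called higher). A single feature of the 28678 lies outside the axes.

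The effect of water deficit was compared without and with low phosphate in the same way, again over libraries that are not shared. Of the 1686 genes higher in water deficit than in control, 453 (26.9%) were higher in the pair than in low phosphate, where 17.2% of all tested genes were, and 162 (9.61%) were lower, where 18.1% were. Their median difference was 0.46 without low phosphate and 0.03 with it as deposited, and 0.58 and 0.23 after scaling, where the median of all genes with low phosphate was -0.13 and 0.04. Of the 2922 genes lower in water deficit than in control, 1083 (37.1%) were lower in the pair than in low phosphate and 904 (30.9%) were higher. Both shares were above the background of 18.1% and 17.2%. The genes that fell under water deficit alone thus included large groups that moved either way when water deficit was added to low phosphate.

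The dependence was tested gene by gene as the departure from additivity, the log2 difference of the pair from control minus those of both single stresses. limma called 8069 genes (28.1%), 3990 above and 4079 below the sum of the single effects as deposited. After scaling the counts were 4852 and 3080, and all of the 3990 and 3080 were called under both scalings. At 2-fold or more, 1392 genes were above the sum and 359 below it. At 8-fold, 207 were above and 5 below.

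The 3990 genes above the sum had a median difference from control of -0.30 in water deficit, -0.23 in low phosphate and 0.33 in the pair as deposited, and of -0.19, -0.20 and 0.54 after scaling. The 3080 genes below the sum had medians of 0.11, 0.08 and -0.48 as deposited and of 0.23, 0.11 and -0.25 after scaling. The typical gene above the sum was thus lower than the control in each single stress and higher in the pair, and the typical gene below it was the mirror image. These comparisons all share the control libraries, and the genes were chosen on the departure, so the medians are a description.

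Among genes that passed the same filter on level and spread, the largest departures were those of GLYMA_02G215700, at 8.0 ± 0.20 (SE; limma adjusted p = 3.93e-31), and GLYMA_07G143500, at 7.41 ± 0.20 (limma adjusted p = 5.28e-29). Under that filter, GLYMA_20G158500 lay farthest below the sum, and genes outside the filter lay farther. It had 3.33, 3.16 and 4.43 FPKM in the pair, 18.3, 19.8 and 19.4 FPKM in water deficit, 10.6, 13.2 and 10.7 FPKM in low phosphate and 6 and 7.28 FPKM in the control. Each single stress was above the control and the pair below it, with no overlap. The departure was -2.84 ± 0.18 (limma adjusted p = 1.9e-16), and that of GLYMA_14G038500 was -2.83 ± 0.18 (limma adjusted p = 8.27e-17).

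The same departure can be read in plants that also met salinity, acidity or both, from libraries that the pair, its parts and the control do not include. With salinity added, limma called 2983 genes (10.4%), but 1062 without replicate 1 of every group and 922 without replicate 2. With acidity it called 16767 (58.5%), and with salinity and acidity 16785 (58.5%). Under both scalings, the shares of all tested genes above and below the sum were 5.05% and 4.75% with salinity, 12.6% and 25.9% with acidity, and 29.1% and 18.4% with salinity and acidity.

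The genes above the sum in the pair were more often below than above it when salinity or acidity was added. Of the 3990, 149 (3.73%) were above the sum with salinity, near the 5.05% of all tested genes. Below it were 641 (16.1%), where 4.75% of all were. With acidity, 139 (3.48%) were above and 2737 (68.6%) below, where 12.6% and 25.9% of all were. Their median was -0.98 as deposited and -0.64 after scaling, where all genes had -0.36 and -0.03. With salinity and acidity together, 2661 (66.7%) were again above the sum and 318 (7.97%) below, where 29.1% and 18.4% of all were.

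The 3080 genes below the sum in the pair went the other way. With salinity, 428 (13.9%) were above and 97 (3.15%) below, and with acidity 1189 (38.6%) were above and 385 (12.5%) below. With salinity and acidity, 353 (11.5%) were above and 1278 (41.5%) below. With 1 added stress the share above the sum was larger than its background and the share below it smaller, and with both added stresses the reverse held.

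The difference between these departures was tested directly. As deposited, that of the pair alone differed from that with salinity at 7965 genes (27.8%), 3991 with the greater value in the pair alone. Without replicate 1 of every group that count of 7965 was 4866, and without replicate 2 it was 4515, of which 2731 had the greater value in the pair alone. The departure of the pair alone differed from that with acidity, as deposited, at 14827 genes (51.7%), 10415 with the greater value in the pair alone. After scaling, 4545 of 7786 and 7684 of 14251 genes had the greater value in the pair alone. The second balance moved with scaling, from 70.2% to 53.9%. For GLYMA_02G215700 the departure was -1.62 ± 0.19 with salinity, -1.36 ± 0.19 with acidity and 3.11 ± 0.19 with both.

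Across all 18 leaf groups, most stressed groups had medians near or beyond that of the pair at the genes that separate it from its parts. After scaling, the 3620 genes higher than both parts had a median of -0.01 in the pair, on a log2 scale relative to the mean of the 18 groups. The groups below it were low phosphate (-0.86), water deficit (-0.77), the control (-0.69), acidity (-0.42) and acidity with low phosphate (-0.02). The other 12 groups lay between 0.02 in salinity and 0.72 in salinity with acidity. For the 2970 genes lower than both parts, the highest medians were again those of low phosphate (0.46), water deficit (0.42), the control (0.42) and acidity (0.29), and the pair was at -0.06. The control and the single stresses of water deficit, low phosphate and acidity thus sat at one end for both sets. The genes were chosen on the pair, water-deficit and low-phosphate libraries, so the medians of these 3 groups were shaped by the choice, and the position of the pair is a description.

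**Figure D5:**
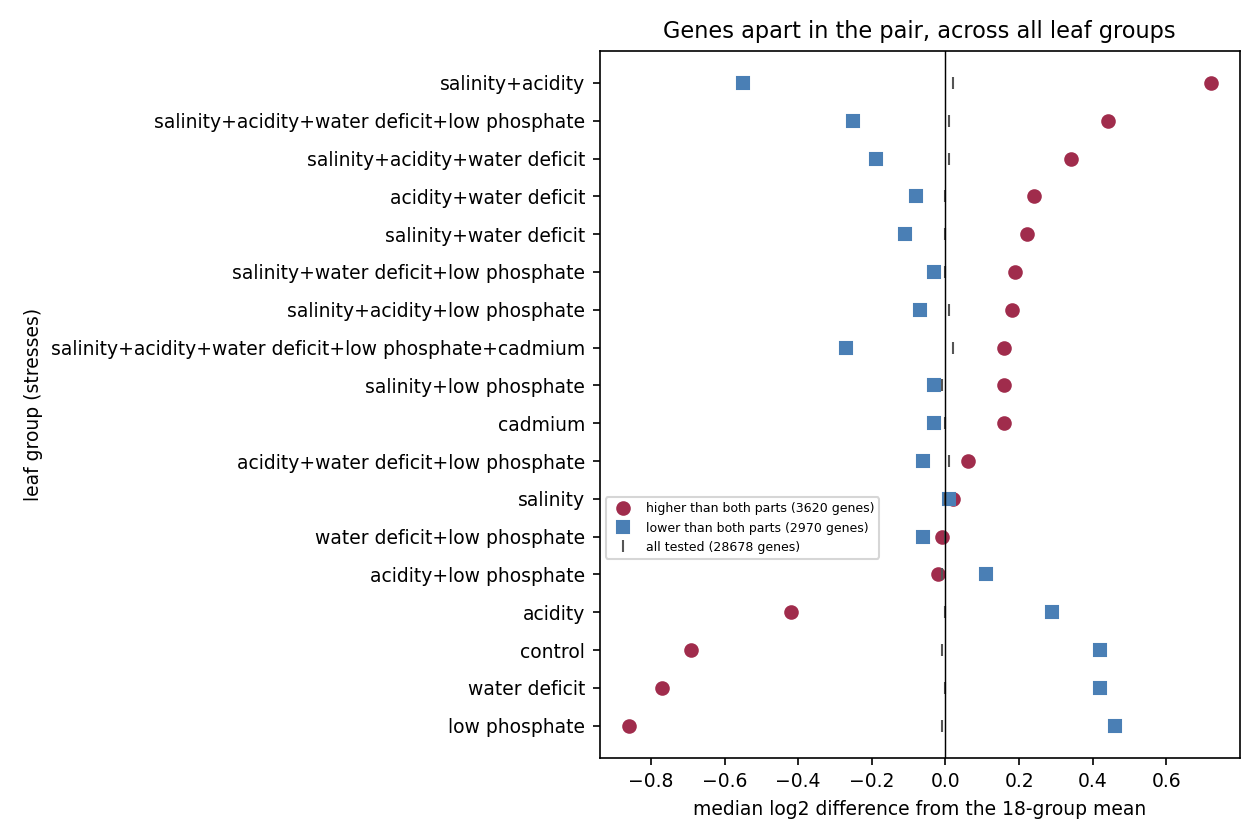
Median log2 difference from the mean of the 18 leaf groups, after scaling, for genes higher (3620) or lower (2970) in the pair than in both parts and for all 28678 tested genes, 1 row per group in the order of the first set. Low phosphate, water deficit, the control and acidity lie at the bottom, from -0.86 to -0.42 for the first set, and the pair is at -0.01.

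The named genes varied in how they ranged over the other leaf groups. GLYMA_02G215700 ranged over the other 14 leaf groups from a mean of 4.79 FPKM in acidity with low phosphate to 335.5 FPKM under all 5 stresses, and 9 of those 42 libraries were above the highest pair library. GLYMA_07G143500 ranged from 12.4 FPKM in acidity to 327 FPKM in salinity with acidity, with 27 of 42 libraries above the pair. GLYMA_13G029200 ranged from 18 FPKM in acidity to 348 FPKM in salinity with acidity, with 30 of 42 above the pair. The pair's level was therefore within the range of other stressed leaves for each of the 3, and the levels under water deficit or low phosphate alone were below the mean of every one of those 14 groups. GLYMA_06G043000, which fell in the pair, was below the lowest control library in all 42 of those libraries, down to a mean of 0.601 FPKM in acidity with water deficit and low phosphate. GLYMA_06G291700 was likewise below the lowest control library in all 42. The other falls were not: GLYMA_14G038500 was above the highest control library in 7 of the 42 libraries, GLYMA_03G221400 in 13 and GLYMA_20G158500 in 5.

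By its whole profile, the pair was most like the triple that adds acidity. The correlation across the 28678 genes of group means, each centred on the 18-group mean after scaling, was 0.42 with acidity, water deficit and low phosphate. It was 0.27 with water deficit, 0.12 with low phosphate and 0.09 with the control, and lowest with acidity and water deficit, at -0.45. These values are a description across genes that share the same centring.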

How the data were processed

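Leaf RNA-seq values of 18 treatments were used, and the flower table was not. The authors deposited FPKM per feature. The submitters' processing notes name HISAT2 2.2.1, and the counting tool, genome build and annotation are not given in the sources used here. The members and lists were chosen with earlier results of these data known. Columns were matched to samples by their labels, and the averaged control column was left out. Values were taken as log2(FPKM + 1) for 28678 of 57147 features with a leaf mean of at least 1 FPKM. limma 3.58.1 (R 4.3.3) was fitted to all 53 leaf libraries, with 1 mean per group and a shared spread (empirical Bayes with trend and robust), p-values being Benjamini-Hochberg adjusted over all features of each contrast. The fit was also run on simulated data, which bears on the code and not on the calls made here. Those data were independent normal values, with a set change in some genes of the pair and no scaling shifts. Each result was repeated with every library divided by its median ratio to the gene-wise geometric mean. Named genes are the 2 largest rises and 2 largest falls against each part and in the departure, called under both scalings, above 0 in all 11 libraries, with a mean over them of at least 5 FPKM and less than 3-fold spread within each group. Keyword lists of genes, phosphate and drought markers among them, could not be applied, because 0 IDs matched the RefSeq table of the assembly Glycine_max_v4.0. Same-numbered libraries of different groups deviated from their group means with correlations of -0.06 to 0.05, and differently numbered ones with -0.05 to 0.07. Across all genes these values show no pairing by number, but they cannot exclude one that touches only some genes. Absolute depth is unknown, so no counting intervals are given. Figures were drawn with Python 3.11.15 and matplotlib 3.10.9.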

Additional observations from a re-analysis of the deposited data

Results flagged for a closer look

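A departure from additivity is a difference between the effect of 1 stress with and without the other, so each one called is listed here. The test of that difference called 8069 genes for the pair, 2983 with salinity added, 16767 with acidity added and 16785 with both added. The departure itself differed between the pair alone and the pair with salinity at 7965 genes, and between the pair alone and the pair with acidity at 14827. Among the named genes, the log2 departures were 8 for GLYMA_02G215700, 7.41 for GLYMA_07G143500 and 6.64 for GLYMA_13G029200. On the other side they were -2.84 for GLYMA_20G158500, -2.83 for GLYMA_14G038500, -2.74 for GLYMA_06G043000, -0.89 for GLYMA_06G291700 and -0.38 for GLYMA_03G221400. The last of these was lost when only the 4 groups were fitted (limma adjusted p = 0.113), without water deficit replicate 2 (0.0537) and without pair replicate 3 (0.0503).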

How the results depend on the processing

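Counts of genes recomputed under settings other than a left-out library stayed within 1.5 times the value reported in 105 cases and did not in 9. With a minimum leaf mean of 5 FPKM, which tests 16201 features, the counts were 9062 for the pair against low phosphate, 8358 for the pair against control, 10712 for the departure with acidity, 10889 for that with salinity and acidity, and 3485 for genes lower than both parts. The last was 2970 after median-ratio scaling. Fitting only the 4 groups gave 4255 genes for water deficit against control and 553 for low phosphate against control, 526 of them lower. Of these 526, 503 were higher in the pair than in water deficit. The cause of the lower counts was not tested.

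With 1 library left out at a time, water deficit against control ranged from 3365 to 7778 genes, low phosphate against control from 638 to 1188, and genes lower in low phosphate alone and higher in the pair than in water deficit from 567 to 941, all lowest without control replicate 1. With 1 replicate number left out of every group, the departure with salinity ranged from 922 to 2021 genes and its difference from that of the pair alone from 4515 to 6539, both lowest without replicate 2. No named gene changed direction against either part or in the departure under any setting run. With the replicate number as a block, the counts were 12046 against water deficit, 14701 against low phosphate and 7930 for the departure, and no named gene lost its call. The derived counts (genes beyond both parts, and genes shared by 2 contrasts) and their settings were added after the data were seen.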

Other observations

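Some features are listed at exactly 0 in some libraries and at high values in others, which in a table without counts can be a failed estimate. Of the tested features, 366 were at 0 in 1 or more of the 11 libraries and at 10 FPKM or more in another. They include 18 of the genes higher than both parts and 2 of those lower. GLYMA_19G046800, singled out after its values were seen, was listed at 0 in the pair, in the control and in low phosphate replicate 1. It was at 26050 and 25259 FPKM in the other low-phosphate libraries and at 20257, 22993 and 20801 FPKM in water deficit, which is 2.85% to 3.9% of the FPKM sum of each of those libraries. In the other 42 leaf libraries it was at 0 in 21 and between 11938 and 30211 FPKM in 21. In FPKM + 1, it is the 1 gene called at least 8-fold lower in the pair than in water deficit, with a log2 difference of -14.38.

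Features with an ENSRNA ID, 323 of those tested, held 30 of the genes higher than both parts (9.29%) and 0 of those lower, where GLYMA IDs held 12.7% and 10.5%. By the chromosome number written in the GLYMA ID, the share of genes higher than both parts ran from 11% on chromosome 9 to 15.8% on chromosome 13 and 16.4% on chromosome 16. Of the genes higher than both parts, 20.4% were followed along the chromosome, in ID order among tested genes, by another such gene, where 12.7% of all genes were in the set. For the genes lower than both parts the values were 12% and 10.5%.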
